A study of Mus musculus with 22 samples.

Results

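Expression of 9 interferon-stimulated genes was followed through the 4 groups of the study. The genes were chosen by name: Ifit1, Ifit3, Irf7, Irf9, Usp18, Oasl2, Isg15, Bst2 and Ifitm3. All 9 were found among the 23361 gene rows of the expression matrix, and all 9 were among the 16978 genes with a mean of at least 0.1 FPKM (sequenced fragments scaled to transcript length and to the number of mapped fragments of the library) over all libraries, which were the genes tested. Each library was made from RNA of the hippocampal CA1 region of 1 mouse. The groups were AL-fed mice at 5 months (n = 5), mice under calorie restriction (CR) at 5 months (n = 5), AL-fed mice at 15 months (n = 6) and CR mice at 15 months (n = 6). AL-fed mice ate a normal diet without restriction, and CR mice received a smaller ration, reduced in carbohydrates. All 22 mice were wild-type females, F1 offspring of Swiss Webster x DBA/C57BL6, on their diet since young adulthood, and were perfused before dissection. They carried no transgene, and some of them had also served as controls of another study.

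Interferons are secreted proteins that cells release on sensing foreign or displaced nucleic acids. Type I interferon binds the receptor subunits Ifnar1 and Ifnar2, and the kinases Jak1 and Tyk2 then pass the signal on. It leads to a complex that holds Irf9 and binds interferon-stimulated response elements, DNA sequences in the promoters of the responding genes. In brain, microglia, endothelial cells, cells of the meninges and choroid plexus, astrocytes and neurons can all respond. The 9 genes fall into several roles. Irf9 is the DNA-binding part of the complex, and Irf7 is a transcription factor that amplifies interferon production. Isg15 is a ubiquitin-like protein that is joined to other proteins, and Usp18 removes it and also dampens signaling at the receptor. Ifit1 and Ifit3 are tetratricopeptide proteins, of which Ifit1 binds foreign RNA, and Oasl2 belongs to the oligoadenylate synthetase family. Bst2 (tetherin) holds budding virus at the cell surface, and Ifitm3 hinders virus entry at endosomes.

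Because the response element is what these genes are known to share, the RefSeq promoter windows (GRCm38.p6, 250 bases before to 50 bases after the start) were searched for GAAANNGAAA on both strands, where N is any base and overlapping matches were counted. All genes but Usp18 had a window, and 5 of these 8 held the motif in any window. The share was 3.99% of all 27025 genes with a window and 3.66% of tested genes with a window. Counted by window, it was 3.44% of all 32851 windows. Of a list of other interferon-stimulated genes, 19 of the 38 genes with a window held it. Stretches of 120 bases from the windows with matches before the start, and the 27 bases with matches of Ifitm3, are shown 5′ to 3′ on the strand of the gene, with the matches in capitals. The strands and positions are minus strand for Isg15 (chr4:156200859-156200978) and Bst2 (chr8:71537513-71537632), plus strand for Ifit1 (chr19:34640729-34640848) and Ifit3 (chr19:34583369-34583488), and minus strand for Ifitm3 (chr7:141010716-141010742).
Isg15: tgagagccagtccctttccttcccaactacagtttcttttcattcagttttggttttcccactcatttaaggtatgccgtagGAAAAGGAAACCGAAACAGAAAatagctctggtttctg
Bst2: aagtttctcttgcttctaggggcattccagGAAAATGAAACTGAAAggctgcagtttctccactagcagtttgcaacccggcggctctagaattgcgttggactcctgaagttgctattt
Ifit1: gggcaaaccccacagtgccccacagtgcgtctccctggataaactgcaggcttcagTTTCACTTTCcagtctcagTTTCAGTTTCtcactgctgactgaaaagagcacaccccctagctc
Ifit3: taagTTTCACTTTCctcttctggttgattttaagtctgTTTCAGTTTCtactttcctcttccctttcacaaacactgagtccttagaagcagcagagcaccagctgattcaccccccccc
Ifitm3: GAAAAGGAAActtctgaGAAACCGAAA

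The first match of Isg15 began 78 bases before the start, and its 3 matches overlapped, each sharing GAAA with the next. Bst2 held 2 overlapping matches from 130 bases before the start. In Ifit1 and Ifit3 the 2 matches of each lay apart and on the opposite strand, from 104 and 156 bases before the start. Ifitm3 had its 2 matches within the first transcribed bases, from 3 and 20 bases after the start. No window of Irf7, Irf9 or Oasl2 held these letters, which says only that this spelling is not in the stretch searched.

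**Figure D1:**
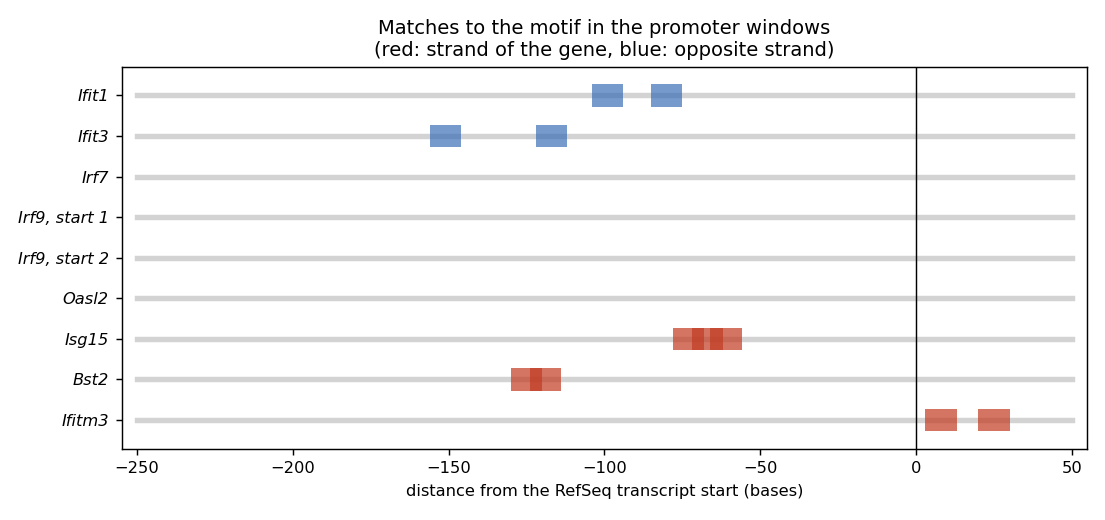
Matches to GAAANNGAAA in the promoter windows of 8 of the 9 genes. The x axis is the distance from the RefSeq start in bases, grey lines are the windows searched, red blocks are matches on the strand of the gene and blue blocks are matches on the opposite strand. Ifit1, Ifit3, Isg15, Bst2 and Ifitm3 have matches, and Irf7, both starts of Irf9, and Oasl2 have none.

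Median expression over all genes was 2.51 to 3.10 FPKM per library, and the number of read pairs behind single values is unknown. Differences between groups were fitted with limma on log2(FPKM + 0.1), all 22 libraries together, and a gene was called at a Benjamini-Hochberg adjusted p under 0.05 over all genes tested. In 36 comparisons of single genes (9 genes in 4 comparisons), group means of the same log2 values were also compared by exact two-sided permutation tests. Their p-values are not adjusted for the 36 tests, unlike the limma adjusted p-values printed beside them. CA1 pyramidal neuron markers were expressed in every group. Their list score, the mean log2(FPKM + 0.1) over the list, was 5.71 ± 0.49 (SD, n = 5) in young and 4.04 ± 0.60 (SD, n = 6) in old AL-fed mice. The neocortex and subiculum list moved the other way, from 3.13 ± 0.17 to 3.90 ± 0.22, so that age and the tissue content of the samples cannot be told apart. Some libraries stood apart. AL 15 months replicate 1 had the highest leptomeninges score of its group, 4.68 against 2.84 at most in the others. CR 5 months replicates 3 and 4 had choroid plexus scores of 3.0 and 5.08, whereas the scores of the other 20 libraries did not exceed 1.73. In bulk tissue, a larger number of cells of a type and more RNA per cell cannot be told apart.

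The 9 genes lie on chromosomes 4 (Isg15), 5 (Oasl2), 6 (Usp18), 7 (Irf7 and Ifitm3), 8 (Bst2), 14 (Irf9) and 19 (Ifit1 and Ifit3) and were expressed at low to moderate levels. Ordered by the median FPKM over the 22 libraries, which is a level per transcript length, they were Ifitm3 (10.1), Irf9 (5.41), Bst2 (4.25), Isg15 (2.95), Ifit3 (2.53), Oasl2 (0.881), Irf7 (0.825), Ifit1 (0.823) and Usp18 (0.484). The level of Ifitm3 was above that of Irf9 in 22 of 22 libraries, Bst2 above Isg15 in 21, Ifit3 above Oasl2 in 22, and Ifit1 above Usp18 in 22. Other neighbours in this order changed places between mice: Irf9 was above Bst2 in 15 libraries, Isg15 above Ifit3 in 15, Oasl2 above Irf7 in 13 and Irf7 above Ifit1 in 15. Over all libraries the highest level exceeded the lowest by 10.05 times for Bst2, 5.17 times for Ifit1, 5.11 times for Ifit3 and 1.93 times for Irf9, with the other 5 genes between 2.48 and 3.63 times.

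**Figure D2:**
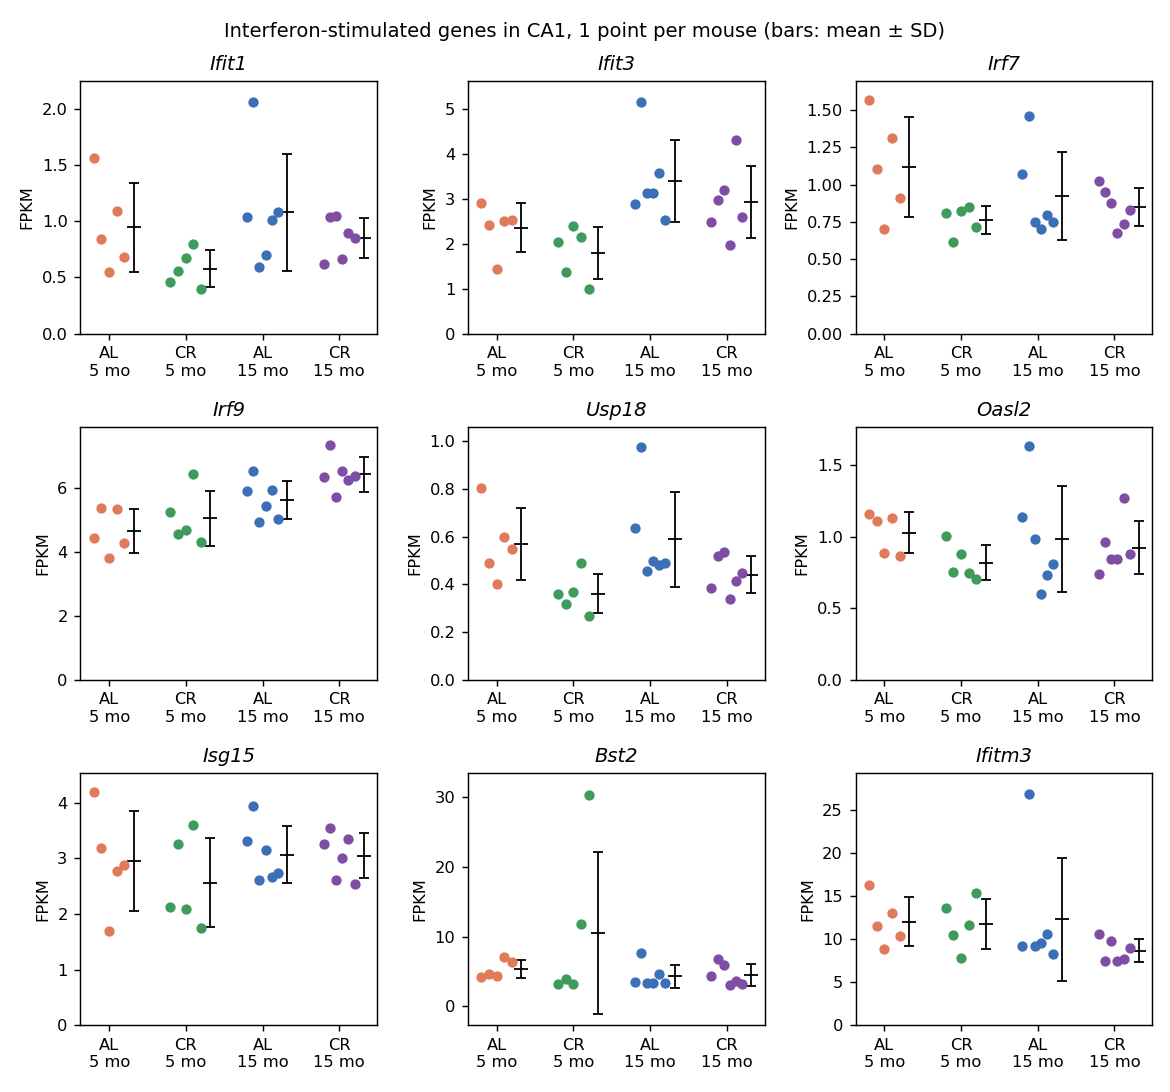
FPKM of the 9 genes in each library, 1 panel per gene and 1 point per mouse, by group (AL and CR at 5 and 15 months), with bars for the mean and SD. The groups overlap for every gene, AL 15 months replicate 1 lies above the rest of its group for all 9 genes (26.9 FPKM for Ifitm3), and 2 CR libraries at 5 months lie far above the others for Bst2 (11.8 and 30.4 FPKM).

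AL-fed mice at 15 months were compared with those at 5 months, a comparison in which age and tissue content cannot be told apart. Irf9 and Ifit3 had the largest positive differences, and neither was called. The levels of Ifit3 at 5 months were 2.91, 2.41, 1.44, 2.51 and 2.52 FPKM, and those at 15 months ran from 2.54 through a median of 3.13 to 5.15 FPKM. Every 15-month library lay above the 5-month median, but the lowest of them lay under the highest 5-month library. The fitted difference was 0.51 on the log2 scale, with an SE of 0.23, a limma adjusted p of 0.119 and an exact permutation p of 0.0173. Under the alternative settings other than omissions of single libraries, the difference of Ifit3 ran from 0.05 to 0.59. Its limma adjusted p reached 0.973 at most over all settings. Irf9 was at 4.44, 5.37, 3.82, 5.34 and 4.29 FPKM at 5 months, and at 15 months it ran from 4.93 through a median of 5.67 to 6.52 FPKM. Again all 6 libraries at 15 months exceeded the 5-month median while the ranges overlapped. The log2 fold change of Irf9 was 0.27 (SE 0.11, limma adjusted p = 0.0747, exact permutation p = 0.0346), and 0.19 to 0.29 under the same alternative settings.

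None of the 9 genes was called in this comparison, in which 20.6% of all tested genes were called. At an unadjusted limma p under 0.05 there were 2 of 9, against 35.2% of all tested genes. The ranges of the ages overlapped for all 9 genes, whereas 14.0% of tested genes had no overlap. The other 7 genes had log2 fold changes between -0.35 (Bst2) and 0.15 (Ifit1), with exact permutation p-values from 0.190 to 0.887, and the median over the 9 was 0.03 beside 0.00 over all tested genes. For Irf7 the mean level was 1.12 ± 0.336 FPKM (SD, n = 5) in the younger and 0.921 ± 0.294 FPKM (SD, n = 6) in the older mice. The sign of Ifit1 rested on 1 mouse, since its log2 fold change was 0.15 with all libraries and -0.04 without AL 15 months replicate 1. For Ifitm3 the value was -0.08 with all libraries, 0.04 without AL 5 months replicate 0, and -0.33 without AL 15 months replicate 1.

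In CR mice, 7 of 9 differences between 15 and 5 months were positive, with a median log2 fold change of 0.23 beside 0.00 over all tested genes, and again no gene was called. In the same comparison 8 of 8 endothelium markers were positive (median 0.22, none called), and 8 of 8 choroid plexus markers were negative (median -3.57, 7 called lower). The CA1 score was 5.67 ± 0.21 (SD, n = 5) in young and 4.69 ± 0.96 (SD, n = 6) in old CR mice. The neocortex and subiculum score was 2.96 ± 0.26 (SD, n = 5) and 3.52 ± 0.57 (SD, n = 6). The part of these cells and of tissue content in the differences was not tested. Ifit3 was at 2.03, 1.38, 2.40, 2.15 and 1.007 FPKM in CR mice at 5 months, and at 15 months it ran from 1.98 through a median of 2.79 to 4.32 FPKM. Of the 6 older mice, 5 lay above the median of the younger ones. Ifit3 thus differed by 0.70 on the log2 scale (SE 0.23, limma adjusted p = 0.102, exact permutation p = 0.0216). Irf9 was at 5.24, 4.56, 4.70, 6.44 and 4.298 FPKM at 5 months, and from 5.71 through a median of 6.35 to 7.36 FPKM at 15 months. Only CR 5 months replicate 3 reached into the older range. The log2 fold change of Irf9 was 0.35 (SE 0.11, limma adjusted p = 0.0767, exact permutation p = 0.0216). Without that library the limma adjusted p of Irf9 became 0.0221 in CR mice and 0.0495 in AL-fed mice. In AL-fed mice the libraries compared stay the same, and the omission acts through the shared estimate of the spread and the set of genes tested.

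Ifit1 in CR mice had a mean of 0.578 ± 0.162 FPKM (SD, n = 5) in the younger and 0.852 ± 0.180 FPKM (SD, n = 6) in the older group, a log2 fold change of 0.50 (SE 0.26, limma adjusted p = 0.333, exact permutation p = 0.0346). For Ifitm3 the difference was negative. It was at 13.6, 10.5, 7.80, 11.6 and 15.4 FPKM at 5 months, and at 15 months ran from 7.42 through a median of 8.38 to 10.7 FPKM. All 6 older mice lay under the median of the younger ones, with a log2 fold change of -0.41 (SE 0.24, limma adjusted p = 0.384, exact permutation p = 0.0476). None of the 9 genes was called, beside 3.36% of all tested genes, and 2 of 9 had an unadjusted limma p under 0.05, beside 18.0%. No gene of the 9 had separate ranges, which 3.26% of tested genes had.

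Whether restriction altered the genes in young adults was measured by comparing CR with AL at 5 months. The difference was negative for 7 of the 9 genes, with a median log2 fold change of -0.30 beside 0.00 over all tested genes. Usp18 was at 0.806, 0.489, 0.400, 0.597 and 0.550 FPKM in AL-fed mice and at 0.361, 0.319, 0.368, 0.489 and 0.269 FPKM in CR mice. No CR mouse reached the AL median, although the highest CR library lay above the lowest AL library. The log2 fold change of Usp18 was -0.52 (SE 0.19, limma adjusted p = 1.0, exact permutation p = 0.0238). Ifit1 was at 1.56, 0.846, 0.544, 1.09 and 0.685 FPKM in AL-fed mice and at 0.461, 0.559, 0.676, 0.800 and 0.397 FPKM in CR mice, a log2 fold change of -0.58 (SE 0.28, limma adjusted p = 1.0, exact permutation p = 0.0714). The values of Irf7 were 1.57, 1.10, 0.705, 1.31 and 0.910 FPKM under AL feeding and 0.808, 0.616, 0.821, 0.851 and 0.713 FPKM under CR. All 5 CR libraries of Irf7 lay under the AL median, with a log2 fold change of -0.46 (SE 0.19, limma adjusted p = 1.0, exact permutation p = 0.0635).

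Oasl2 and Ifit3 were also under the AL median in 5 of 5 CR mice. Oasl2 averaged 1.03 ± 0.143 FPKM (SD, n = 5) in AL-fed and 0.817 ± 0.123 FPKM (SD, n = 5) in CR mice, a log2 fold change of -0.30 (limma adjusted p = 1.0, exact permutation p = 0.0397). Irf9 was the higher in CR mice by its mean, at 4.65 ± 0.682 FPKM in AL-fed and 5.05 ± 0.851 FPKM in CR mice (SD, n = 5 each). None of the 9 genes was called with limma at 5 months, nor was any other tested gene (0.00% of all), and 3 of the 9 had an unadjusted limma p under 0.05, beside 4.65% of tested genes. Separate ranges were found for none of the 9 and for 1.36% of tested genes. Leaving out AL 5 months replicate 0 moved Usp18 from -0.52 to -0.41, Irf7 from -0.46 to -0.34 and Ifit1 from -0.58 to -0.39. Markers of several cell types had differences of the same sign. For CR against AL at 5 months, 6 of 8 endothelium markers (median log2 fold change -0.28), 7 of 7 pericyte and vessel wall markers (-0.25), 10 of 10 microglia markers (-0.16) and 8 of 8 oligodendrocyte markers (-0.50) were negative. In contrast, 8 of 8 choroid plexus markers (1.68) and 7 of 8 leptomeninges markers (0.21) were positive, and none of all these was called. The endothelium score was 2.77 ± 0.16 in AL-fed and 2.54 ± 0.25 in CR mice (SD, n = 5 each). With that score as a covariate the log2 fold changes were -0.27 for Usp18, -0.22 for Irf7 and -0.27 for Ifit1. Over all alternative settings other than omissions of single libraries, they ran from -0.63 to -0.20 for Usp18, -0.52 to -0.22 for Irf7 and -0.65 to -0.27 for Ifit1. The part of these cells in the differences was not tested.

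At 15 months, 7 of 9 differences between CR and AL-fed mice were negative with all libraries, among them Isg15 at -0.003. Without AL 15 months replicate 1, Irf7 was at 0.06, Isg15 at 0.07 and Oasl2 at 0.11. With all libraries the median over the 9 genes was -0.08, and none of the 9 was called with limma, where 0.742% of tested genes were. None had an unadjusted limma p under 0.05, beside 17.1% of tested genes, and none had separate ranges, beside 0.984%. Irf9 had the higher level in CR mice, at 6.42 ± 0.537 FPKM (SD, n = 6) against 5.63 ± 0.605 FPKM (SD, n = 6), and every CR library (6 of 6) exceeded the AL median. The log2 fold change of Irf9 was 0.19 (SE 0.10, limma adjusted p = 0.352, exact permutation p = 0.0368). Usp18 averaged 0.589 ± 0.200 FPKM (SD, n = 6) in AL-fed and 0.440 ± 0.0775 FPKM (SD, n = 6) in CR mice, a log2 fold change of -0.32 (SE 0.17, limma adjusted p = 0.352), and of -0.19 without AL 15 months replicate 1. Ifitm3 differed by -0.37 on the log2 scale (SE 0.23, limma adjusted p = 0.425), and by -0.12 without that library. Isg15 averaged 3.07 ± 0.510 FPKM in AL-fed and 3.05 ± 0.406 FPKM in CR mice (SD, n = 6 each). Tissue content also differed by mean between these groups. The CA1 score was 4.04 ± 0.60 in AL-fed and 4.69 ± 0.96 in CR mice (SD, n = 6 each). The neocortex and subiculum score was 3.90 ± 0.22 and 3.52 ± 0.57 (SD, n = 6 each). The part of tissue content in the differences between diets at 15 months was not tested.

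The age by diet interaction asks whether the age difference in CR mice differed from that in AL-fed mice. Its log2 values ran from -0.33 for Ifitm3 to 0.39 for Irf7, with standard errors from 0.15 to 0.63 and limma adjusted p-values from 0.737 to 0.916. Without AL 15 months replicate 1 the value of Ifitm3 was -0.0817, and those of Ifit1, Oasl2 and Usp18 moved from 0.35, 0.27 and 0.20 to 0.54, 0.41 and 0.34. Without AL 5 months replicate 0, Ifit1 was at 0.16 and Usp18 at 0.0830. None of the 9 genes was called, and no other tested gene was (0.00%). An unadjusted limma p under 0.05 was found for none of the 9 and for 7.66% of tested genes.

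**Figure D3:**
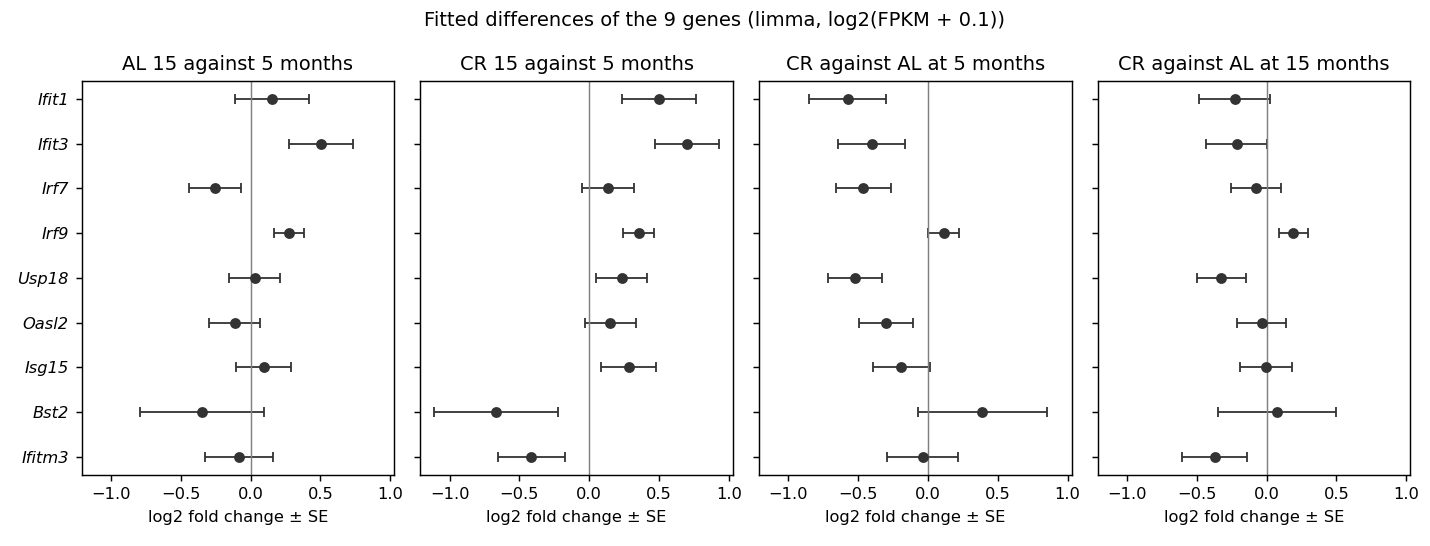
Log2 fold change (x axis, difference of mean log2(FPKM + 0.1)) and standard error of the 9 genes in the 4 comparisons of 2 groups. Irf9 and Ifit3 lie to the right of 0 in both comparisons of ages. In each comparison of diets 7 of 9 genes lie to the left (Isg15 at -0.003 at 15 months), and none was called.

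Mice of the same group spread widely. Within a group, the highest level of a gene exceeded the lowest by 1.29 times (Irf9 in CR mice at 15 months) to 9.76 times (Bst2 in CR mice at 5 months). AL 15 months replicate 1 had the highest value of its group for 9 of 9 genes, a place it held for 16.2% of all tested genes. Relative to the median of the other 5 mice, Ifitm3 was 2.90 times as high in this library (26.9 FPKM against 8.26 to 10.7), Bst2 2.26 times (7.59 against 3.26 to 4.57), Ifit1 2.04 times (2.05 against 0.590 to 1.08), Oasl2 2.01 times (1.63 against 0.599 to 1.14), Usp18 1.99 times (0.975 against 0.455 to 0.637), Irf7 1.95 times (1.46 against 0.704 to 1.07) and Ifit3 1.65 times (5.15 against 2.54 to 3.57). The median ratio over the 9 genes was 1.99. Among the 45 tested genes of the list of other interferon-stimulated genes, this library was highest for 24 and lowest for 0, with a median ratio of 1.41. Ifitm1 and Ifitm2, relatives of Ifitm3, were at 9.24 and 21.998 FPKM there, 4.65 and 2.09 times the median of the others.

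In AL-fed mice at 5 months, replicate 0 had the highest value for 7 of the 9 genes and for 25 of the 45 other interferon-stimulated genes, a place it held for 22.5% of tested genes. Its ratio to the median of the other 4 mice was 2.04 for Ifit1, 1.55 for Irf7 and 1.55 for Usp18, and the median over the 9 genes was 1.48. Irf9 was within the range of the others, at 4.44 FPKM against 3.82 to 5.37, and Bst2 was at its lowest, 4.18 FPKM. Replicate 2 of the same group was lowest for 7 of the 9 genes, with a median ratio of 0.697. In CR mice at 5 months, replicate 4 was lowest for 6 of the 9 genes but highest for Bst2 and Ifitm3. Replicate 3 of that group was highest for 5 of the 9 and lowest for 0. Among CR mice at 15 months no library was highest for more than 3 of the 9.

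**Figure D4:**
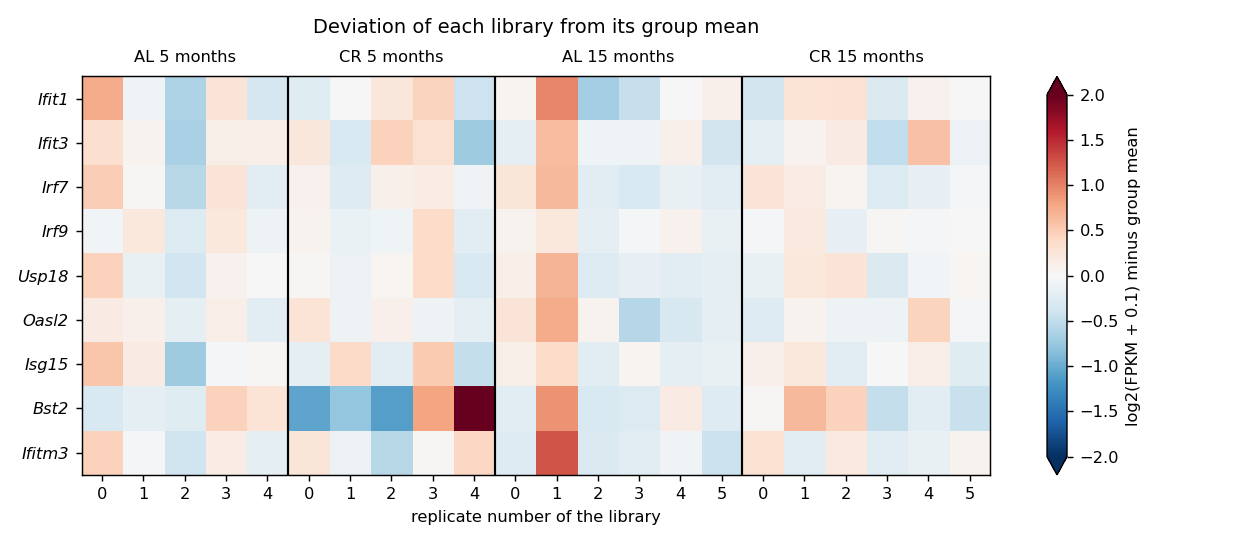
Deviation of each library from its group mean, log2(FPKM + 0.1), for the 9 genes (rows) in the 22 libraries (columns, by group and replicate number), red above and blue below the mean. The column of AL 15 months replicate 1 is red in all 9 rows, and Bst2 differs from most other rows in CR 5 months replicate 4.

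Markers of other cells stood out in the same library. In AL 15 months replicate 1, 7 of 8 leptomeninges markers, 6 of 8 endothelium markers, 5 of 5 perivascular macrophage markers, 4 of 7 pericyte and vessel wall markers and 3 of 10 microglia markers were highest of their group. The summed level of the leptomeninges markers was 1199 FPKM in it and 140 to 542 FPKM in the others of its group, that of the endothelium markers 104 FPKM against 62.1 to 92.5, and that of the perivascular macrophage markers 11.3 FPKM against 0.757 to 2.95. Summed microglia markers were 232 FPKM, within the 129 to 237 FPKM of the others. The part of these cells in the high values was not tested. In AL 5 months replicate 0, 3 of 8 endothelium, 3 of 5 perivascular macrophage, 3 of 7 pericyte and vessel wall, 3 of 12 blood leukocyte, 0 of 8 leptomeninges and 0 of 10 microglia markers were highest of the group. Its summed perivascular macrophage markers were 2.01 FPKM against 0.904 to 1.88 in the others, and its pericyte and vessel wall markers 70.4 FPKM against 53.3 to 70.2. Of 12 blood leukocyte markers 8 were highest of the group in AL 15 months replicate 1, with a sum of 3.01 FPKM against 1.04 to 2.91. Of the 12, 8 were at 0 in at least 1 library. Their sum did not exceed 3.55 FPKM in the other 3 groups but ran from 1.24 to 17.2 FPKM in CR mice at 15 months, where the neutrophil genes S100a8 and S100a9 reached 7.32 and 8.22 FPKM. For CR against AL at 15 months, S100a8 and S100a9 gave log2 fold changes of 1.74 and 1.77 (limma adjusted p = 0.230 and 0.234). Ptprc, the other tested marker of this list, gave -0.03 (limma adjusted p = 0.959). The blood leukocyte scores of CR 15 months replicates 4 and 5 were 2.08 and 1.10, and the rest of that group ran from -1.36 to 0.33.

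Across the 22 libraries, deviations from the group mean of log2(FPKM + 0.1) were compared between the 9 genes as a description, since they share libraries and depth. Pearson's r over the 36 pairs of genes had a median of 0.53 and ran from -0.12 to 0.89, with Ifit1 and Usp18 the closest pair (0.89), then Irf7 and Usp18 (0.84). Without the 8 pairs that include Bst2 the lowest r was 0.31 and the median 0.58. Leaving out AL 5 months replicate 0 and AL 15 months replicate 1 lowered the median over the 36 pairs to 0.36, and Ifit1 and Usp18 were then at 0.78. With the endothelium score, the mean deviation of the 9 genes had an r of 0.77, and 0.66 without these 2 libraries. With the leptomeninges score r was 0.62, and 0.25 without them. With the microglia score it was 0.01. Values for the other lists, among them pericyte and vessel wall and perivascular macrophage, are not given here. These r values therefore single out no cell type.

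The 5 genes nearest in pattern to the mean of the 9, among 13839 genes with a mean of at least 1 FPKM, were Cdh5 (r = 0.83), Vwf (0.78), Vtn (0.78), Foxc1 (0.78) and Podxl (0.76), over 22 libraries. Without the same 2 libraries the values were 0.71 for Cdh5, 0.42 for Vwf, 0.54 for Vtn, 0.41 for Foxc1 and 0.73 for Podxl. Cdh5 (VE-cadherin), Vwf (von Willebrand factor) and Podxl are expressed in endothelium, and Vtn (vitronectin) in pericytes. Cdh5, which was itself in the endothelium list, was at 5.99 FPKM in AL 15 months replicate 1 and at 2.64 to 3.54 FPKM in the others of its group.

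Bst2 departed from most of the other 8 genes in CR 5 months replicate 4, where 6 of the 9 were lowest of the group. Ifitm3 was highest there as well. In replicate 3 the genes went more together, since 5 of the 9 were highest and 0 lowest in it. Their median ratio to the median of the others was 1.39 there. Bst2 was at 3.23, 3.96, 3.11, 11.8 and 30.4 FPKM in CR replicates 0 to 4, against 4.18, 4.57, 4.36, 7.13 and 6.28 FPKM in AL-fed mice of the same age. The first 3 CR libraries lay below all AL libraries and the last 2 above them. Those 2 were the libraries with choroid plexus scores of 3.0 and 5.08, and the summed choroid plexus markers were 73.6 and 308 FPKM in them, while Folr1, the folate receptor of choroid plexus epithelium, was at 10.7 and 70.7 FPKM. In replicate 4, 8 of 8 choroid plexus markers and 8 of 8 oligodendrocyte markers were highest of the group. Other markers also stood high in them. The summed leptomeninges markers were 440 and 365 FPKM in replicates 3 and 4, above the other 3 libraries of the group, and in replicate 3, 5 of 5 perivascular macrophage and 6 of 8 endothelium markers were highest. The deviations of Bst2 and of the choroid plexus score had an r of 0.77, and of 0.17 without these 2 libraries. Among the other 8 genes, r with this score ran from -0.34 (Ifit1) to 0.20 (Ifitm3). The part of choroid plexus or of the other cells in the Bst2 values was not tested.

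The sign of the Bst2 difference changed without these libraries. For CR against AL at 5 months, the fit gave 0.39 on the log2 scale (SE 0.46, limma adjusted p = 1.0), and -0.59 without CR 5 months replicates 3 and 4. In CR mice, 15 against 5 months gave -0.67 (SE 0.44, limma adjusted p = 0.455), and 0.31 without them. The genes nearest in pattern to Bst2 were Cgnl1 (r = 0.93, and 0.72 without the 2 libraries), Trpv4 (0.89 and 0.51), Tcn2 (0.88 and 0.72), Ltc4s (0.88 and 0.59) and Igfbp2 (0.88 and 0.68), and they were looked up after the values of Bst2 had been seen.

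**Figure D5:**
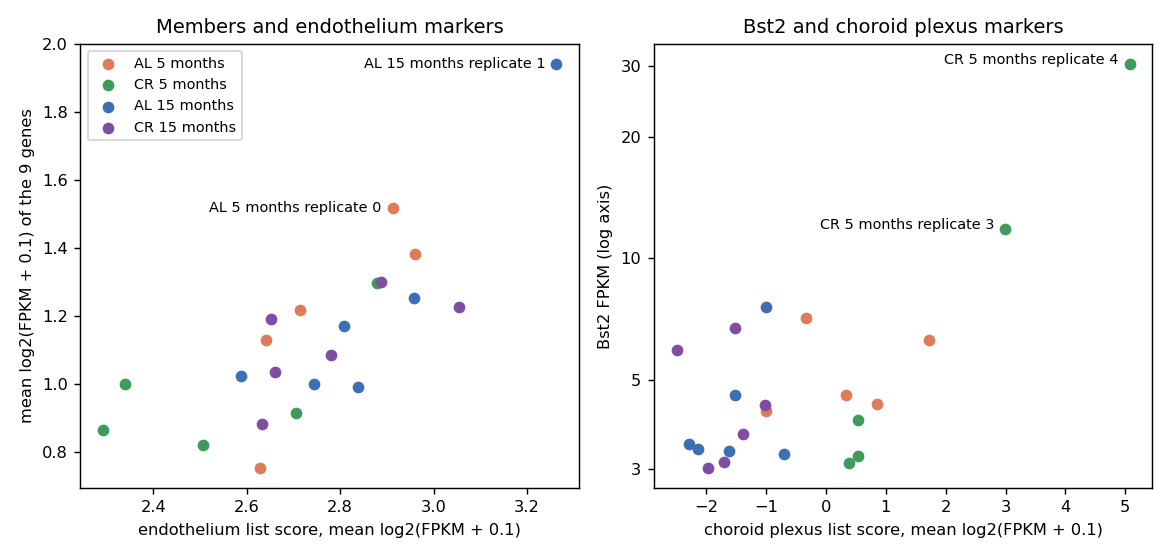
Left, mean log2(FPKM + 0.1) of the 9 genes against the endothelium list score, and right, Bst2 FPKM (log axis) against the choroid plexus list score, 1 point per library in the colour of its group. AL 15 months replicate 1 is at the top right on the left panel (endothelium score 3.26), and CR 5 months replicates 3 and 4 are at the right of the right panel (scores 3.0 and 5.08).

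The rest of the pathway was described with 7 lists of 103 genes, of which 102 were in the matrix and 89 tested. In AL-fed mice at 15 against 5 months, 10 of the 89 were called higher and 2 lower, with a median log2 fold change of 0.07. These 12 of 89 stand beside 20.6% of all tested genes called in this comparison, so calls were no more frequent in the lists than over all genes. None was called in the other comparisons of 2 groups. The ligands were almost unmeasured. Of 10 interferon genes, 0 passed the filter, 3 were listed at 0 in all libraries, and none exceeded 0.0695 FPKM, the highest value of Ifne. Among the 9 receptors and signal transducers, Ifnar1 rose (9.30 ± 0.437 to 10.7 ± 0.594 FPKM, log2 fold change 0.20, limma adjusted p = 0.0143). Ifngr2, a subunit of the interferon gamma receptor, fell from 37.4 ± 3.13 to 28.4 ± 3.14 FPKM (log2 fold change -0.40, limma adjusted p = 0.00340), and Jak1 from 50.7 ± 1.29 to 44.0 ± 1.31 FPKM (log2 fold change -0.20, limma adjusted p = 0.0296). Stat2, which binds Irf9, had a log2 fold change of -0.01 and was not called. Here the errors are SD with n = 5 and n = 6.

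Of 7 feedback inhibitors, Socs3, which is induced by cytokines and blocks Jak kinases, was called. It rose from 0.462 ± 0.105 FPKM (SD, n = 5) to 1.99 ± 0.187 FPKM (SD, n = 6) with separate ranges, a log2 fold change of 1.91 (SE 0.31, limma adjusted p = 0.000515). In CR mice the log2 fold change of Socs3 was 0.44 (limma adjusted p = 0.478), and the 15-month levels spread from 0.287 to 2.43 FPKM. The age by diet interaction of Socs3 was -1.48 (limma adjusted p = 0.608) and was not called. Nor was its difference for CR against AL at 15 months, -0.95 (limma adjusted p = 0.117). Of 4 genes for joining Isg15 to proteins, the ligase Herc6 rose from 1.26 ± 0.254 to 3.05 ± 1.58 FPKM (log2 fold change 1.09, SE 0.25, limma adjusted p = 0.00448), with 5.22 and 4.93 FPKM in AL 15 months replicates 4 and 5 and 1.76 to 2.24 FPKM in the other 4. The conjugating enzyme Ube2l6 rose from 4.08 ± 0.679 to 5.46 ± 0.825 FPKM (log2 fold change 0.41, limma adjusted p = 0.0307). Isg15 itself had a log2 fold change of 0.09 in the same comparison. AL 15 months replicate 1, highest for all 9 genes, was at 2.06 FPKM for Herc6.

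The RNA sensor Ifih1 was the called gene among 15 tested sensors and adaptors, from 0.650 ± 0.170 to 1.13 ± 0.291 FPKM (log2 fold change 0.71, SE 0.20, limma adjusted p = 0.0157). Of the 9 other interferon regulatory factors and their partners, Irf2bp2 rose (log2 fold change 0.39, limma adjusted p = 0.0281), and so did Irf4 (0.90, limma adjusted p = 0.00189), which was at 0.0815 FPKM at 5 months and, like Mx1, is named outside the rule after its values were seen. Among the 45 other interferon-stimulated genes, Adar, an RNA editing enzyme, rose from 31.7 ± 1.63 to 41.3 ± 1.80 FPKM (log2 fold change 0.38, limma adjusted p = 0.000842). Shisa5 rose from 31.7 ± 1.66 to 44.9 ± 7.34 FPKM (log2 fold change 0.48, limma adjusted p = 0.0167), and Mx1 rose at a low level (log2 fold change 0.66, limma adjusted p = 0.0447). All 12 calls were lost with the region score, the neocortex and subiculum score minus the CA1 score, as a covariate, with limma adjusted p-values from 0.312 for Irf4 to 0.875 for Irf2bp2. This loss was general, since with that covariate 0 of the 16978 tested genes were called for age in AL-fed mice, where 2120 had an unadjusted limma p under 0.05. Leaving out single libraries also ended 4 calls. Jak1 was lost when AL 5 months replicate 2, AL 5 months replicate 4 or AL 15 months replicate 0 was omitted (limma adjusted p = 0.0587 to 0.0747), and Ube2l6 without AL 5 months replicate 1, 3 or 4 or AL 15 months replicate 3, 4 or 5 (0.0541 to 0.0990). Irf2bp2 was lost without AL 5 months replicate 0, 2, 3 or 4 or AL 15 months replicate 0, 4 or 5 (0.0513 to 0.0649), and Mx1 in the absence of any one of AL 5 months replicates 1 to 4, CR 5 months replicates 0 to 2 and AL 15 months replicates 0, 1, 4 and 5 (0.0520 to 0.129).

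Over the 45 other interferon-stimulated genes the median log2 fold change was 0.10 for age in AL-fed and 0.13 in CR mice, and -0.16 for CR against AL at both ages. The difference between diets was negative for 35 of 45 genes at 5 months and for 36 of 45 at 15 months, and none was called in either, while the median over all tested genes was 0.00 at both ages. Among the cell markers, 6 of 8 of endothelium were negative at each age, and those of pericytes and vessel walls were negative for 7 of 7 at 5 months and 6 of 7 at 15 months. Other lists changed sign between the ages. Microglia markers were negative for 10 of 10 at 5 months and positive for 8 of 10 at 15 months. Leptomeninges markers were positive for 7 of 8 at 5 months and negative for 6 of 8 at 15 months. Of the 45 genes, AL 5 months replicate 0 was highest of its group for 25 and AL 15 months replicate 1 for 24. How far the counts of negative differences rest on these libraries was not tested. The 2 comparisons of diets share no mice, whereas each shares a group with both comparisons of ages.

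Some readings carry limits of counting. The libraries did not keep strand, and Irf7 overlaps Phrf1 on the opposite strand, Irf9 overlaps Rnf31 on the same strand, and Usp18 overlaps Gm44148 in the GENCODE annotation of GRCm38. Reads of Ifit1 and Ifit3, of Ifitm3 and its relatives, and of Oasl2 and Oasl1 could be shared between similar sequences, which the fractional assignment of multiply mapped reads leaves uncertain.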

How the data were processed

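Messenger RNA was sequenced from CA1 microdissections of 22 mice with a kit that does not keep strand. The authors removed duplicates with Picard after aligning read pairs to mm10 with TopHat, and estimated FPKM with Cufflinks, with corrections for fragment bias and multiply mapped reads. The FPKM values were used as the authors deposited them. Tool versions and the annotation release are not given in the sources used here, and 0 columns of the matrix were left out. Genes with a mean of at least 0.1 FPKM were tested, 16978 in all, as log2(FPKM + 0.1), so fold changes of low genes are understated. The depth per library is unknown, since at most 0.780% of low genes lay on a common ratio between libraries, and counting error has no interval here.

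All 4 groups, taken from the labels, entered 1 linear model without covariates in R 4.3.3 (limma 3.58.1, eBayes with trend, two-sided), and the steps were tested on simulated data. Exact permutation tests, tables and plots used Python 3.11.15, scipy 1.17.1, numpy 2.4.6, pandas 2.3.3 and matplotlib 3.10.9. Coordinates are from GENCODE release M21 (GRCm38) and promoters from RefSeq (GRCm38.p6). The 9 genes, the 7 pathway lists and the marker lists were chosen with earlier results of these data known. Named are the 9 genes, the 3 largest rises and falls among called genes of each pathway list with a mean of at least 1 FPKM in either group, and the 5 genes nearest in pattern to the mean of the 9. Of the 103 listed pathway genes, Ifi27 was not matched and 1 is not reported here by name. Nothing beyond the labels says that mice of a group were raised apart, and p-values measure the spread between these mice.

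Alternatives were a pseudocount of 1 or 0.01, a filter at 1 FPKM or none, a common median, quantile normalization, no trend, a fit of the compared groups alone, a replicate block, the region, microglia or endothelium score as a covariate and the omission of each library. The choroid plexus and leptomeninges scores as covariates and the omission of 2 pairs of libraries were added after seeing the data.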

Additional observations from a re-analysis of the deposited data

Results flagged for a closer look

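In 36 groups of libraries (9 genes in 4 groups), the gap between the most extreme library and its neighbour was compared with the range of the group. It was unusually wide in 4, all of them AL 15 months replicate 1, the library that also had the highest leptomeninges and endothelium scores of its group. Chance alone flags about 1 in 20 groups, and values from the same library are not independent of each other. Ifitm3 was at 26.9 FPKM in that library and at 8.26 to 10.7 FPKM in the other 5. Bst2 was at 7.59 FPKM against 3.26 to 4.57 FPKM, Ifit1 at 2.05 FPKM against 0.590 to 1.08 FPKM, and Usp18 at 0.975 FPKM against 0.455 to 0.637 FPKM. What set this mouse apart was not tested.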

How the results depend on the processing

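No member was called in any comparison, and this was so under every setting run except 3. With the replicate block, Irf9 was called for age in both diets, so that the count of called members was 1 in each (log2 fold change 0.29, limma adjusted p = 0.0341, in AL-fed and 0.37, limma adjusted p = 0.0375, in CR mice). The numbers were not taken to pair mice. Over 31 pairs with the same number, the correlation of deviations ran from -0.139 to 0.163 and was above 0.1 in 2. With the leptomeninges score as a covariate 1 member, Ifit3, was called for age in CR mice (0.75, limma adjusted p = 0.0494). With single libraries left out, 0 to 1 members were called for age in either diet, Irf9 without CR 5 months replicate 3. Of all genes, 3502 were called for age in AL-fed mice and 0 (with the region score) to 4313 under the other settings, 570 in CR mice and 0 (with the choroid plexus score) to 675, and 126 for diet at 15 months and 0 (in a fit of the compared groups alone) to 323. Leaving out 1 library gave 2383 to 3919, 332 to 774 and 15 to 732.

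Of the fold changes of members under the alternatives, 1609 kept their sign and side of the threshold, 67 turned in sign and 5 passed the threshold. None of those that turned was called, and the cause was not tested. For age in AL-fed mice, the log2 fold changes that turned were, with the region score, Bst2 0.0868, Ifit1 -0.30, Isg15 -0.0787, Usp18 -0.13 and, outside the 9, Mx1 -0.16, with the choroid plexus score Bst2 0.59, Ifit1 -0.0861, Ifitm3 0.0518, Isg15 -0.0199 and Usp18 -0.0763, with quantile normalization Isg15 -0.0167 and Usp18 -0.0832, and for Usp18 also -0.0155 with a common median, -0.0778 with the endothelium score and -0.0203 with the leptomeninges score. For age in CR mice they were Bst2 1.14, Irf7 -0.0255 and Oasl2 -0.0375 with the choroid plexus score, Irf7 -0.11, Oasl2 -0.0121 and Usp18 -0.0349 with the endothelium score, Irf7 -0.0725 with the region score and Bst2 0.31 without CR 5 months replicates 3 and 4.

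For CR against AL at 5 months, Bst2 turned to -0.41 with the choroid plexus score and -0.59 without CR 5 months replicates 3 and 4, Ifitm3 to 0.26 and Isg15 to 0.0030 with the endothelium score, and Ifitm3 to 0.0777 without AL 5 months replicate 0 and AL 15 months replicate 1. At 15 months, leaving out the latter pair turned Irf7 to 0.0554, Isg15 to 0.0701 and Oasl2 to 0.11. Quantile normalization gave Irf7 0.0825, Isg15 0.0897 and Oasl2 0.11, the region score Bst2 -0.11, Irf7 0.0626, Isg15 0.0707 and Oasl2 0.0193, and the endothelium score Irf7 0.0176, Isg15 0.0724 and Oasl2 0.0267. Isg15 was also at 0.0232 with a common median, 0.0250 with the leptomeninges and 0.0288 with the microglia score. The interaction of Bst2 turned to 0.55 with the choroid plexus score and 0.66 without CR 5 months replicates 3 and 4.

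With each library left out in turn, the log2 fold changes for age in AL-fed mice ran from -0.0392 to 0.342 for Ifit1, -0.333 to 0.0354 for Ifitm3, 0.208 to 0.328 for Irf9, -0.0834 to 0.233 for Isg15 and -0.106 to 0.148 for Usp18, and in CR mice from 0.300 to 0.443 for Irf9. For diet at 5 months they ran from -0.145 to 0.666 for Bst2 and -0.143 to 0.0999 for Ifitm3. At 15 months they ran from -0.0563 to 0.251 for Bst2, -0.136 to 0.0554 for Irf7, -0.0468 to 0.0701 for Isg15 and -0.149 to 0.113 for Oasl2, and the interaction of Bst2 from -0.594 to 0.218. Of the 12 called pathway genes, 65 of their values under other settings kept their sign but fell short of the threshold. A further 1, Mx1 with the region score, turned in sign and fell short as well. With the depth of each library unknown, the error of low genes such as Usp18 cannot be divided between counting and mice.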
